A study of Homo sapiens with 4 samples.

Results

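The HSP70 and HSP110 chaperone family was examined in RNA sequencing of 293FT cells with mutant or wild-type NIPBL. Its members were the gene records that carry 1 of 10 symbols in GENCODE 29, namely HSPA1A, HSPA1B, HSPH1, HSPA8, HSPA4, HSPA4L, HSPA2, HSPA14, HSPA5 and HSPA9. HSPA14 is annotated under 2 gene identifiers, so the family comprised 11 of the 58174 genes in the deposited tables, and all 11 passed the filter on low counts. 293FT is a fast-growing clone derived from HEK293 cells, a human embryonic kidney line, and expresses the SV40 large T antigen, and NIPBL encodes the factor that loads cohesin onto chromosomes. The study is set in the context of CHOPS and Cornelia de Lange syndromes. Its 4 libraries fall into 2 NIPBL mutant (NIPBLmut) and 2 NIPBL wild-type (NIPBLwt) replicates, without any other treatment named. The kind of mutation, the way it was introduced and the number of clones or cultures are not given in the labels. P-values therefore measure the spread between these libraries, which may be technical. Because RNA was taken from bulk culture, a smaller number of expressing cells and less RNA per cell cannot be told apart.

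HSP70 proteins bind exposed hydrophobic stretches of unfolded proteins and release them through a cycle of ATP binding and hydrolysis. J-domain proteins bring the client and start hydrolysis, and nucleotide exchange factors, among them the HSP110 relatives HSPH1, HSPA4 and HSPA4L, reset the cycle. Heat shock factor 1 (HSF1) induces the stress-inducible members by binding heat shock elements, which are alternating repeats of a short GAA-containing unit, whereas HSPA5 answers to unfolded proteins in the endoplasmic reticulum through a different element.

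The libraries held between 31545743 and 33161120 expected counts, the estimated numbers of reads that RSEM assigns to genes. Counts were scaled to a common library total (CPM) with factors from the trimmed mean of M values (TMM), and 1 count corresponded to between 0.0287 and 0.0335 CPM. The wild-type replicates stood farther apart than the mutant replicates, with a chi-square per gene of 4.0 between the mutant libraries and 46.8 between the wild-type libraries. NIPBL itself was measured at 61.0 and 62.0 CPM in the mutant libraries, against 41.8 and 44.4 CPM in the wild-type libraries, with an edgeR adjusted p of 0.057. A transcript level of this kind does not show whether the protein is altered. All 9 marker genes listed for HEK293-type cells were expressed above the filter, with summed levels of 759 and 711 CPM in the mutant and 1050 and 1210 CPM in the wild-type libraries. edgeR called 3 of these markers lower in the mutant, NEFM, LIN28B and VIM, and 1 higher, KRT8. NEFM, a neurofilament gene, was measured at 1.33 and 0.833 CPM in the mutant libraries, against 72.7 and 63.9 CPM in the wild-type libraries, with an edgeR adjusted p of 0.0086. Fibroblast markers summed to 16.1 and 16.7 CPM in the mutant and 5.87 and 3.85 CPM in the wild-type libraries, with COL1A2 at 0 in all 4. Of the 6 fibroblast markers 3 were tested, all of them with a positive log2 fold change, which was 1.84 for LUM, 2.81 for PDGFRB and 1.31 for COL1A1. edgeR called LUM and PDGFRB higher in the mutant, and DESeq2 called all 3. Endothelial markers stayed between 0.776 and 1.42 CPM. Whether these marker levels bear on the chaperone values was not tested.

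Most of the family was lower in the mutant libraries, and the stress-inducible copies HSPA1A and HSPA1B had the lowest fold changes, with a mean of their summed counts 6.53-fold lower in the mutant. Genes were tested with edgeR's quasi-likelihood test and called at a Benjamini-Hochberg adjusted p under 0.05 over 18984 tested genes. Of the 11 members, 10 had a log2 fold change below 0, against 50.4% of all tested genes, and 8 were lower in both mutant libraries than in either wild-type library, where 30.9% of all tested genes were. HSPA2 was the 1 member higher in both mutant libraries, against 32.3% of all tested genes. The test called 1 member lower, HSPA4L, against 2.10% of all tested genes, and 0 higher, against 3.71%. At an unadjusted p under 0.05 there were 6 members lower and 0 higher, against 13.8% and 15.9% of all tested genes, and DESeq2 called 4 lower and 0 higher, against 5.81% and 6.40% of all genes it tested. These counts include both HSPA14 identifiers and both near-identical copies, HSPA1A and HSPA1B, so they do not rest on 11 independent members. The 4 from DESeq2 include both copies. The median log2 fold change was -0.87 over the members and -0.01 over all tested genes. Among the 4328 tested protein-coding genes of at least 50 CPM, a set closer to the members in level, the median was -0.15. Of these genes 67.6% were below 0, 24.3% were lower at an unadjusted p under 0.05 and 47.5% were lower without overlap. DESeq2 called 568 of them lower and 150 higher.

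All 11 members were also higher in wild-type replicate 2 than in wild-type replicate 1, so the size of every difference depended on which wild-type library was used. The same direction held for 3103 of the 4328 genes of at least 50 CPM. It held for 9081 of the 18766 tested genes that had counts in every library. The median of wild-type replicate 2 minus replicate 1 was 0.70 on the log2 scale over the members, against 0.17 over the 4328 genes. With the sign ignored, the median gap was 0.70 over the members and 0.24 over the 4328 genes. With wild-type replicate 1 left out the members' median log2 fold change was -1.24, and with wild-type replicate 2 left out it was -0.30, against -0.24 and -0.05 over the 4328 genes. Without wild-type replicate 1, 10 members were called lower and 0 higher, against 29.9% and 29.8% of all genes tested. Without wild-type replicate 2, 6 were called lower and 1, HSPA2, higher, against 20.3% and 21.6%. These fits take their spread from the close mutant pair alone. The cause of the gap between the wild-type libraries was not tested.

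**Figure D1:**
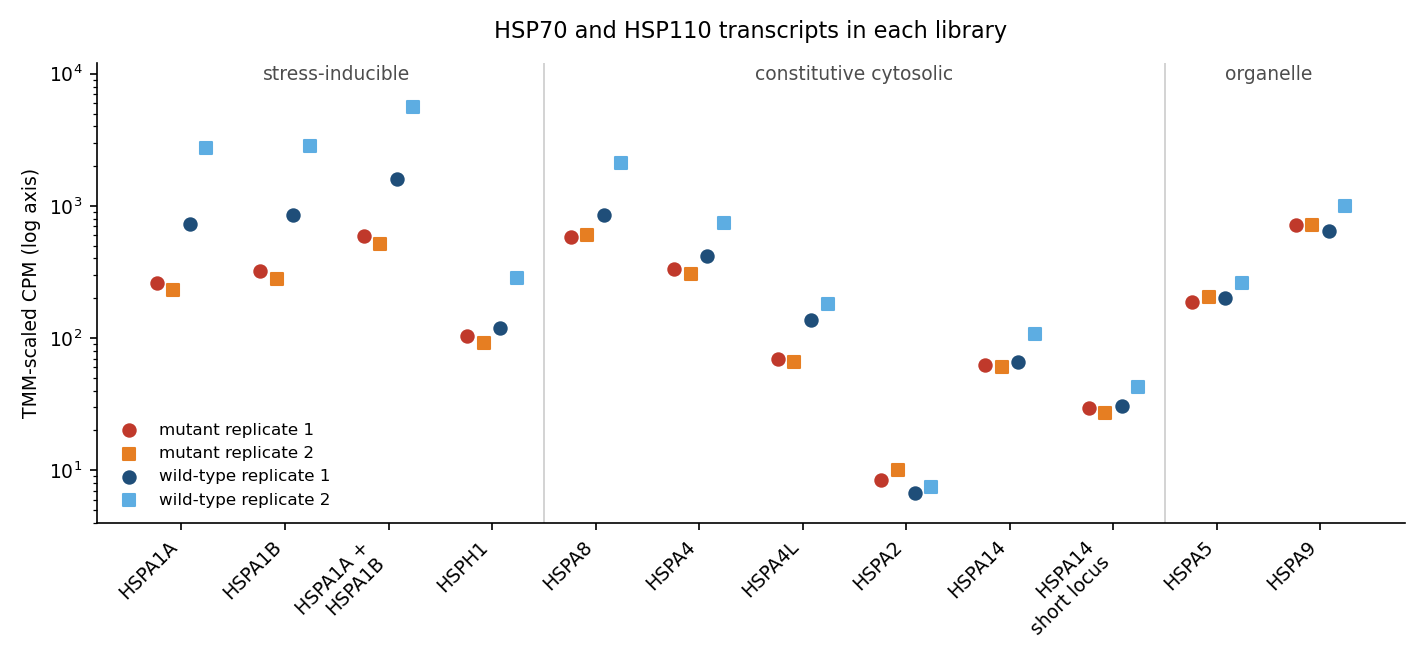
TMM-scaled CPM of each family member on a log axis, with 1 point per library (mutant replicates in red and orange, wild-type replicates in dark and light blue) and the summed HSPA1A and HSPA1B counts as a column of their own. Wild-type replicate 2 is the highest of the 4 libraries for all members except HSPA2, and the widest separation is at HSPA1A and HSPA1B, with 232 and 263 CPM of HSPA1A in the mutant libraries and 732 and 2741 CPM in the wild-type libraries.

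HSPA1A and HSPA1B encode the major heat-inducible cytosolic HSP70 and are near-identical intronless neighbours in the major histocompatibility complex on chromosome 6. In GRCh38, HSPA1A lies at chr6:31815464-31817946 and HSPA1B at chr6:31827735-31830255, both on the plus strand, with 9788 bases between them. Their coding sequences are identical at 1919 of 1923 bases. Of the 66-base windows of their transcripts, 70.0% of HSPA1A's and 70.6% of HSPA1B's occur in another gene, so RSEM had to divide many reads between the copies by estimate. Their sum does not rest on that division. The promoter windows of both copies, from 250 bases before to 50 bases after the RefSeq start on GRCh38.p14, are shown because the copies had similar values in every library. Capitals mark the match to a 2-unit heat shock motif, and the windows lie at chr6:31815293-31815592 for HSPA1A and chr6:31827488-31827787 for HSPA1B, plus strand.
HSPA1A: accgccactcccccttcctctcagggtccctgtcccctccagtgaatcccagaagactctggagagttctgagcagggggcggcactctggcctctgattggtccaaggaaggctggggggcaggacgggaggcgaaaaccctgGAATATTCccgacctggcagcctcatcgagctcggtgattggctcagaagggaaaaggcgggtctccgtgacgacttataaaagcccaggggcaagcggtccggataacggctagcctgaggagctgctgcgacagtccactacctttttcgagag
HSPA1B: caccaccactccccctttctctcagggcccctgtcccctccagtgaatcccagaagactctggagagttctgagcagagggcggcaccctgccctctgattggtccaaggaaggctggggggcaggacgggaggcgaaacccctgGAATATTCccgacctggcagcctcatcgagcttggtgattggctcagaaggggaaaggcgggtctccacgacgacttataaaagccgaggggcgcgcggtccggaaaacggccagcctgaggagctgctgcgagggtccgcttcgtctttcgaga
The windows were identical at 277 of 299 aligned bases, or 92.6%. Each holds the inward form of the motif, GAANNTTC, with its first base at -106 in HSPA1A and -105 in HSPA1B relative to the start, and the outward form, TTCNNGAA, was not found in either. On either strand, GAANNTTC occurs in 6.79% and TTCNNGAA in 7.74% of 34943 RefSeq promoter windows of the same length. The motifs are palindromes, the forms can overlap each other, and a match describes these letters only.

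HSPA1A was measured at 263 and 232 CPM in the mutant libraries, against 732 and 2741 CPM in the wild-type libraries. HSPA1B was measured at 323 and 279 CPM in the mutant libraries, against 852 and 2849 CPM in the wild-type libraries. Both copies were low and close together in the mutant libraries and higher in both wild-type libraries, which differed widely between themselves. Summed, the copies reached 587 and 511 CPM in the mutant libraries, against 1584 and 5590 CPM in the wild-type libraries. That sum made up 0.0621% and 0.0543% of all counts in the mutant libraries, against 0.156% and 0.504% in the wild-type libraries. The groups did not overlap, and the gap within the wild type, 3.53-fold, was larger than the gap between wild-type replicate 1 and the mutant mean, 2.88-fold.

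The log2 fold change of the sum was -2.71 ± 0.58 (SE), a 6.53-fold lower mean in the mutant, and missed the threshold at an edgeR adjusted p of 0.0575. For the single copies the edgeR values were -2.81 ± 0.61 with an adjusted p of 0.0582 for HSPA1A and -2.62 ± 0.56 with an adjusted p of 0.0571 for HSPA1B. DESeq2 placed the sum past the threshold at an adjusted p of 0.0125, as did edgeR with effective length offsets at 0.0447. That offset fit called 3 members lower and 0 higher, against 2.22% and 3.46% of all tested genes. In other edgeR fits the sum lay farther from the threshold, at an adjusted p of 0.234 with a term for replicate number and 0.103 without a filter on counts. Leaving out wild-type replicate 2 moved the log2 fold change of the sum to -1.53, and leaving out wild-type replicate 1 moved it to -3.36. Among the 4328 protein-coding genes of at least 50 CPM, HSPA1A and HSPA1B had the lowest and second lowest log2 fold change. By the log2 excess of wild-type replicate 2 over replicate 1, HSPA1A ranked 1 and HSPA1B ranked 3 from the highest of those genes.

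The division between the copies also varied by library. The ratio of HSPA1A to HSPA1B CPM was 0.814 and 0.833 in the mutant libraries, against 0.859 and 0.962 in the wild-type libraries. It was lower in both mutant libraries, but it depends on how RSEM assigned reads that fit both copies. HSPA1B further shares 920 exon bases on the same strand with a processed transcript, AL671762.1, which is not among the 58174 deposited genes.

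HSPH1, the heat-inducible cytosolic HSP110 that acts as an exchange factor for HSP70, lies on chromosome 13 at chr13:31134974-31162388 on the minus strand. It was measured at 103 and 91.2 CPM in the mutant libraries, against 119 and 286 CPM in the wild-type libraries. The mutant libraries were lower without overlap, yet wild-type replicate 1 lay close to them and wild-type replicate 2 stood apart. Its log2 fold change was -1.06 ± 0.40 (SE) with an edgeR adjusted p of 0.152, and it was -0.30 with wild-type replicate 2 left out. None of its 66-base windows occurs in another gene, and neither heat shock form was found in its promoter window.

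Among the constitutive cytosolic members, HSPA8, also known as HSC70, is the housekeeping HSP70 that folds new proteins and uncoats clathrin vesicles. HSPA8 lies at chr11:123057489-123063230 on the minus strand and was measured at 582 and 601 CPM in the mutant libraries, against 853 and 2100 CPM in the wild-type libraries. Its mutant libraries agreed closely and lay below both wild-type libraries, of which replicate 2 was again far higher. The log2 fold change was -1.32 ± 0.41 (SE) with an edgeR adjusted p of 0.107, and it was -0.53 with wild-type replicate 2 left out. Of the 4328 genes HSPA8 ranked 9 from the lowest fold change, although it is counted as constitutive. It ranked 7 from the highest in the log2 excess of wild-type replicate 2 over replicate 1. Its promoter window is shown because it was the 1 member window with a 3-unit heat shock element, which is marked in capitals at both of its positions. The window lies at chr11:123062087-123062386 of GRCh38.p14, minus strand.
HSPA8: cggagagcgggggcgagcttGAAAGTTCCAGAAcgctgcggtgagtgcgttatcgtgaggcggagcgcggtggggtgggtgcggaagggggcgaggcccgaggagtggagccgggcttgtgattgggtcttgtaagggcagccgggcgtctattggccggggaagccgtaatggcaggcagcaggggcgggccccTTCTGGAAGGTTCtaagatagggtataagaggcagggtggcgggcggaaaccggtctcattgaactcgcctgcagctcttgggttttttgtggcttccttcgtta
These matches begin at -230 and -55 relative to the RefSeq start, and each contains 1 inward and 1 outward form that overlap. A 3-unit element occurs in 0.489% of the 34943 windows. The small nucleolar RNA genes SNORD14C, SNORD14D and SNORD14E lie within HSPA8 on the same strand, and how reads there were divided was not checked.

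HSPA4, an HSP110-type exchange factor also called APG-2, lies at chr5:133051962-133106449 on the plus strand. It was measured at 331 and 305 CPM in the mutant libraries, against 421 and 741 CPM in the wild-type libraries. Both mutant libraries were lower, and wild-type replicate 2 was the highest by a wide margin. HSPA4 had a log2 fold change of -0.87 ± 0.27 (SE) with an edgeR adjusted p of 0.11, while DESeq2 gave an adjusted p of 0.00567. Without wild-type replicate 2 it was -0.41.

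HSPA4L, the HSP110 paralogue of HSPA4 known as APG-1, fell in the mutant and was the 1 member past the threshold. It lies at chr4:127781821-127840733 on the plus strand and was measured at 69.6 and 66.3 CPM in the mutant libraries, against 137 and 180 CPM in the wild-type libraries. The wild-type libraries lay closer together here than for HSPA8 or HSPH1, and the groups did not overlap. Mean levels were 67.9 ± 2.3 CPM in the mutant and 158 ± 30 CPM in the wild type (SD, n = 2 each). The log2 fold change was -1.22 ± 0.16 (SE), a 2.33-fold lower mean, with an edgeR adjusted p of 0.0295. Leaving out each library in turn gave values between -1.42 and -1.02, all called. Over the nearest 25 tested protein-coding genes to either side of HSPA4L the median log2 fold change was -0.27, and with that median removed the value was -0.95 with an edgeR adjusted p of 0.0482. An antisense gene, AC093591.2, shares 536 exon bases with HSPA4L, and reads of the strands may not have been told apart. RefSeq gives 3 starts for HSPA4L, and the window of the second, at chr4:127782072-127782371 of GRCh38.p14 on the plus strand, is shown because it alone holds a heat shock match, the outward form in capitals at -170.
HSPA4L start 2: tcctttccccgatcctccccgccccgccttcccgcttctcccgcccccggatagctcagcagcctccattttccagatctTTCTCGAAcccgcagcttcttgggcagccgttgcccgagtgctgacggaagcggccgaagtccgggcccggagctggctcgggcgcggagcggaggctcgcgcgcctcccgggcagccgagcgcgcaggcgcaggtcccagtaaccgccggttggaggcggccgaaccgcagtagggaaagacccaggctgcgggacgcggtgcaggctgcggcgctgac
Which of the starts was used in these cells was not examined.

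HSPA2, an HSP70 best known for its role in spermatogenesis, was the lowest member and the 1 member with a positive fold change. It lies at chr14:64535905-64546173 on the plus strand and was measured at 8.4 and 10.0 CPM in the mutant libraries, against 6.7 and 7.5 CPM in the wild-type libraries. The mutant libraries were slightly higher without overlap. edgeR gave a log2 fold change of 0.37 ± 0.19 (SE) with an adjusted p of 0.241. Its effective length as deposited was 2716 and 2730 bases in the mutant and 2376 and 2500 bases in the wild-type libraries, and offsets for this length brought the value to 0.21.

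HSPA14, a ribosome-associated HSP70 that works with the J-domain protein DNAJC2, is annotated as a longer locus, ENSG00000187522, and a shorter locus, ENSG00000284024, which share 460 exon bases. The longer locus, at chr10:14838164-14871741 on the plus strand, was measured at 62.7 and 59.9 CPM in the mutant libraries, against 66.0 and 107 CPM in the wild-type libraries. The shorter locus, at chr10:14838160-14847018, was measured at 29.6 and 27.2 CPM in the mutant libraries, against 30.5 and 42.3 CPM in the wild-type libraries. At both loci wild-type replicate 1 lay next to the mutant libraries and wild-type replicate 2 was far higher. With the loci summed, the log2 fold change was -0.46 ± 0.22 (SE) with an edgeR adjusted p of 0.23. DNAJC2, named here after its values were seen, was measured at 28.8 and 30.5 CPM in the mutant and 41.4 and 77.8 CPM in the wild-type libraries, with an edgeR adjusted p of 0.101.

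The organelle members had the fold changes closest to 0. HSPA5, or BiP, the HSP70 of the endoplasmic reticulum and a sensor of its unfolded proteins, lies at chr9:125234853-125241330 on the minus strand. It was measured at 188 and 203 CPM in the mutant libraries, against 202 and 261 CPM in the wild-type libraries. The groups overlapped, and the log2 fold change was -0.24 ± 0.16 (SE) with an edgeR adjusted p of 0.357. The HSPA5 promoter window, at chr9:125241294-125241593 of GRCh38.p14 on the minus strand, is shown as a contrast to the heat shock windows, with its endoplasmic reticulum stress element in capitals.
HSPA5: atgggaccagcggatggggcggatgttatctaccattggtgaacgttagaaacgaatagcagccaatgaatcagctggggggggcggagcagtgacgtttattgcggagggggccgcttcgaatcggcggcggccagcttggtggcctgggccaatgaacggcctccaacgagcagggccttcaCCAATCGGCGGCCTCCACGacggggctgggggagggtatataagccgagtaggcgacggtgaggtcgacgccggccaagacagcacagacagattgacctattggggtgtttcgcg
The element begins at -66 relative to the start and occurs in 0.0773% of the 34943 windows, and no heat shock form was found in this window.

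HSPA9, or mortalin, the HSP70 of the mitochondrial matrix that drives protein import, lies at chr5:138553756-138575724 on the minus strand. It was measured at 711 CPM in both mutant libraries, against 644 and 1003 CPM in the wild-type libraries. The mutant values fell between the wild-type values, so the groups overlapped. Its log2 fold change was -0.21 ± 0.22 (SE) with an edgeR adjusted p of 0.556, but it turned to 0.14 without wild-type replicate 2 and to 0.07 in limma-trend on log2(TPM + 1).

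**Figure D2:**
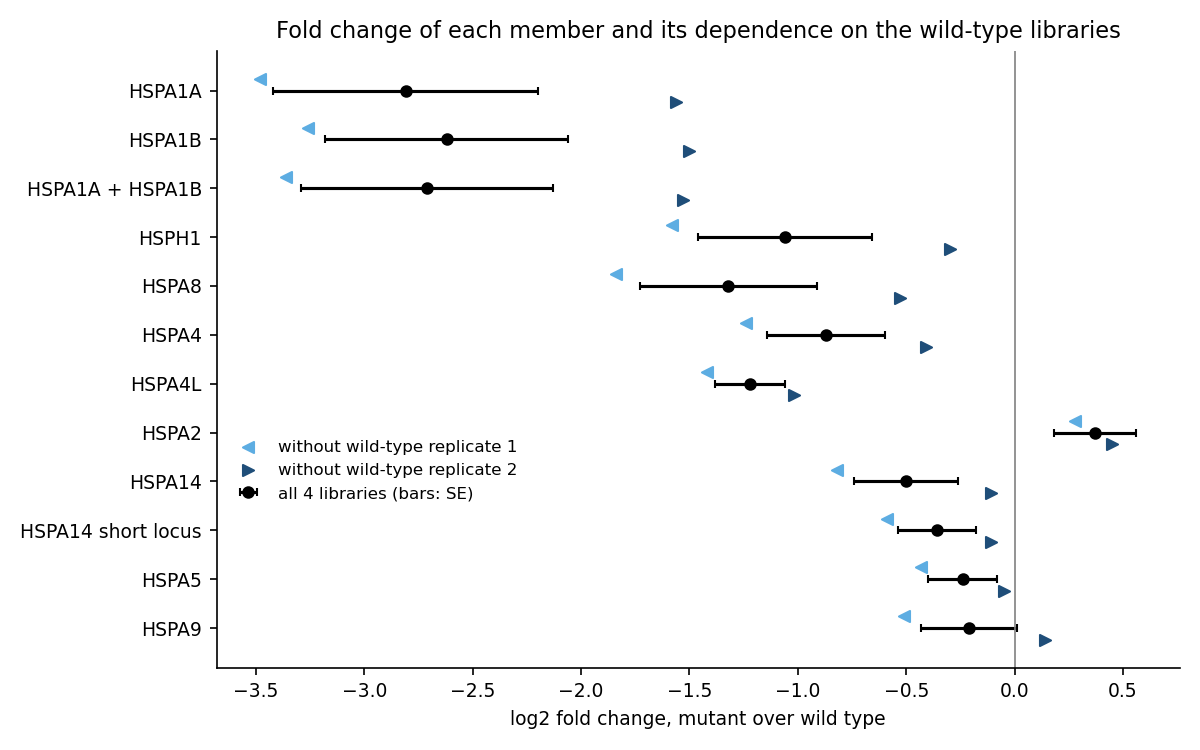
Log2 fold change of each member, mutant over wild type, with all 4 libraries (black points, bars show the SE) and with wild-type replicate 1 or 2 left out (light and dark blue triangles). For every member the value without wild-type replicate 1 is the lower of the blue pair; for the summed HSPA1A and HSPA1B the values are -3.36 without replicate 1 and -1.53 without replicate 2, and for HSPA9 they lie on either side of 0.

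**Figure D3:**
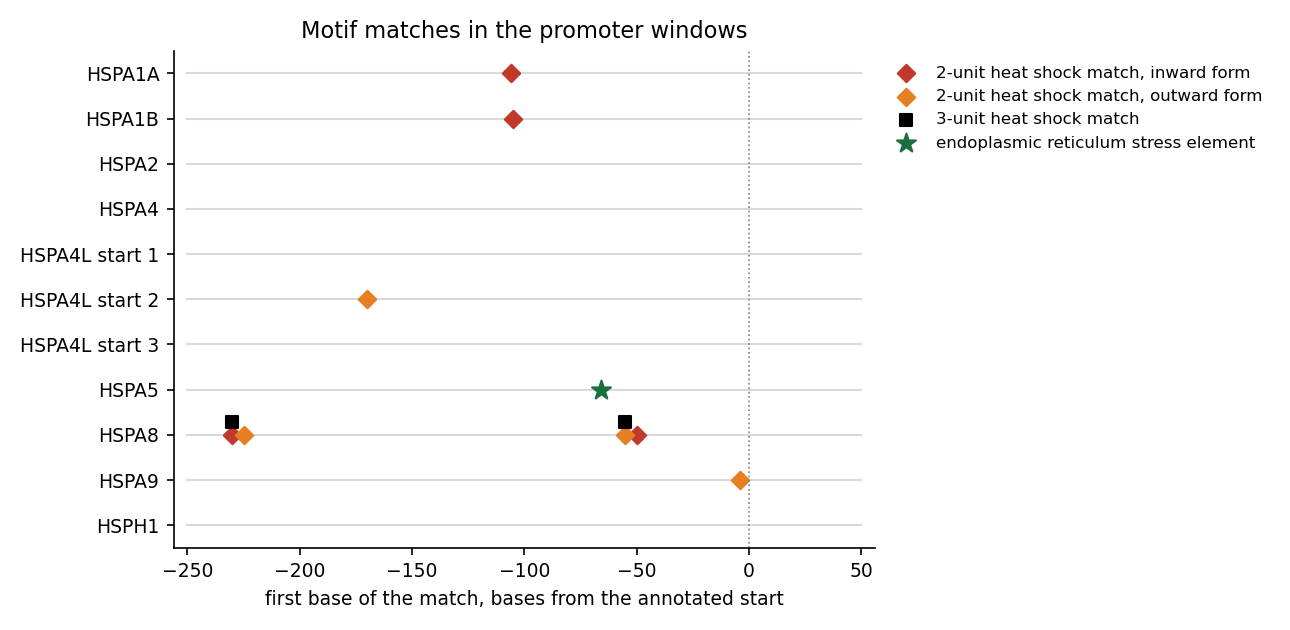
Positions of motif matches in the RefSeq promoter windows of 9 member symbols, in bases from the annotated start, with HSPA4L shown for 3 starts; the inward and outward forms are the 2-unit motifs spelled out above for HSPA1A and HSPA1B. HSPA8 alone has the 3-unit match, at -230 and -55, and HSPA5 alone has the endoplasmic reticulum stress element, at -66.

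Promoter windows were matched for 9 of the 10 symbols, all but HSPA14. A 2-unit heat shock form was found for HSPA1A, HSPA1B, HSPA8, HSPA9 and the second HSPA4L start, and either form occurs in 13.5% of all windows. No form was found for HSPH1, HSPA4 or HSPA2, whose fold changes ran from -1.06 to 0.37. In HSPA9, whose groups overlapped, the outward form begins at -4.

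Inducible and other members were next compared within each library, which cancels the scaling between libraries. The value was the mean of log2 CPM over the HSPA1A and HSPA1B sum and HSPH1, minus the mean log2 CPM over HSPA8, HSPA4, HSPA4L, HSPA2, HSPA14, HSPA5 and HSPA9. It was 0.83 and 0.63 in the mutant libraries, against 1.43 and 2.35 in the wild-type libraries. The mean of the inducible members thus stood farther above that of the others in both wild-type libraries, and most of all in wild-type replicate 2. Means were 0.73 ± 0.15 in the mutant and 1.89 ± 0.65 in the wild type (SD, n = 2 each), a difference of -1.16. An exact two-sided permutation test over the 4 libraries gave p = 0.3333, the smallest p that 2 against 2 libraries allow. With HSPH1 moved out of the inducible class the difference was -1.86, so it came mainly from the HSPA1A and HSPA1B sum. HSPH1 had a log2 fold change of -1.06, smaller in size than -1.32 for HSPA8 and -1.22 for HSPA4L, which are counted among the others.

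By class, the mean log2 CPM of the inducible members was 7.94 and 7.75 in the mutant and 8.76 and 10.31 in the wild-type libraries. For the constitutive cytosolic members it was 6.54 and 6.55 in the mutant and 6.87 and 7.54 in the wild-type libraries. For the organelle members it was 8.51 and 8.57 in the mutant and 8.49 and 9.0 in the wild-type libraries. The inducible and constitutive classes were lower in both mutant libraries, and the organelle class overlapped.

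Levels of different members were compared in TPM, transcript abundances scaled for length to a common total. In the mutant, the order by mean TPM was HSPA9 at 364, HSPA8 at 338, HSPA4 at 137, HSPA1B at 107 and HSPA1A at 96.7, followed by HSPA5 at 44.3, HSPA14 at 32.6, HSPH1 at 27.9, HSPA4L at 12.5, the shorter HSPA14 locus at 10.0 and HSPA2 at 2.94. Of these neighbours, HSPA1B and HSPA1A were the 1 pair whose libraries overlapped. In the wild type, HSPA8 had a mean of 716 TPM, HSPA1A 593, HSPA1B 566 and HSPA9 350, and each overlapped the next. HSPA4 followed at 219 TPM, HSPH1 at 53.7, HSPA5 at 45.6, HSPA14 at 39.2, HSPA4L at 25.5, the shorter HSPA14 locus at 11.2 and HSPA2 at 2.21. Among these lower members HSPH1 overlapped HSPA5, and HSPA5 overlapped HSPA14. HSPA9 and HSPA8 led in both mutant libraries. They also led in wild-type replicate 1, with HSPA8 at 436 and HSPA9 at 292 TPM, ahead of HSPA1B at 270 and HSPA1A at 258 TPM. In wild-type replicate 2 HSPA1A at 928 and HSPA1B at 862 TPM stood between HSPA8 at 997 and HSPA9 at 408 TPM.

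**Figure D4:**
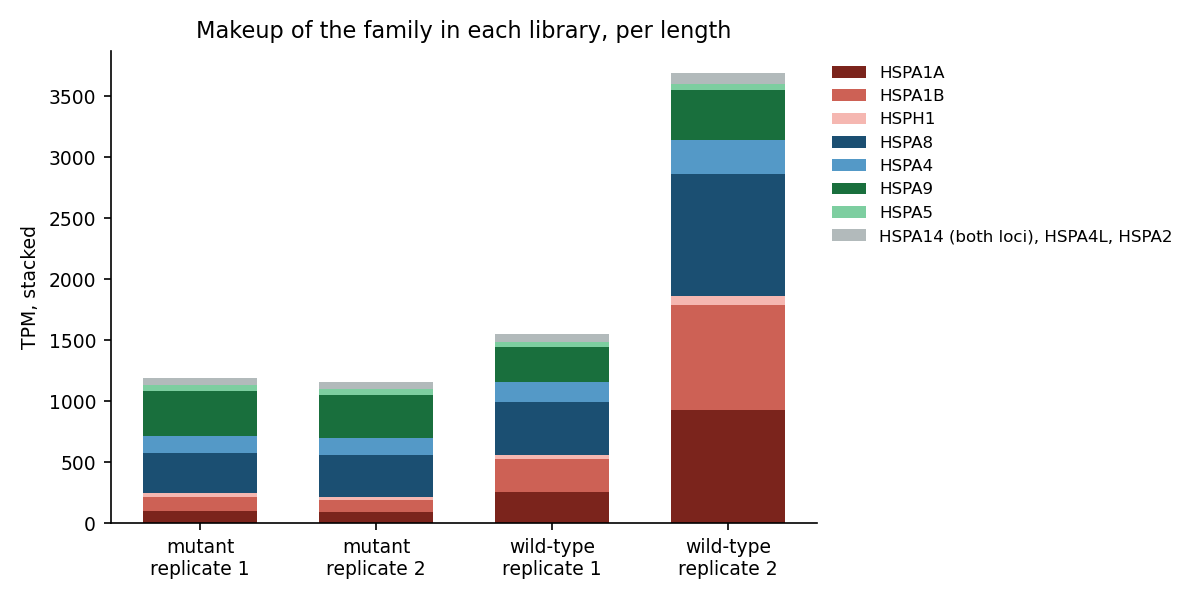
Stacked TPM of the family in each library, mutant libraries on the left and wild-type libraries on the right, with HSPA1A and HSPA1B at the base of each bar. The bars reach 1189 and 1156 TPM in the mutant and 1552 and 3690 TPM in the wild-type libraries, and the dark and light red HSPA1A and HSPA1B blocks account for most of that difference.

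The family summed to 1189 and 1156 TPM in the mutant libraries, against 1552 and 3690 TPM in the wild-type libraries. HSPA1A and HSPA1B together supplied 18.3% and 16.4% of it in the mutant libraries, against 34.0% and 48.5% in the wild-type libraries. Without these copies the family summed to 972 and 967 TPM in the mutant and 1025 and 1900 TPM in the wild-type libraries. In this sum wild-type replicate 1 lay near the mutant libraries, but single members differed in both directions. HSPA8 was at 436 TPM in wild-type replicate 1, against 331 and 346 TPM in the mutant libraries. HSPA9 was at 292 TPM in wild-type replicate 1, against 368 and 359 TPM in the mutant libraries. HSPA8 kept a similar share throughout, 27.8% and 29.9% in the mutant and 28.1% and 27.0% in the wild-type libraries. HSPA9 supplied 30.9% and 31.1% in the mutant libraries, against 18.8% and 11.1% in the wild-type libraries. The TPM ratio of the HSPA1A and HSPA1B sum to HSPA8 was 0.656 and 0.548 in the mutant libraries, against 1.21 and 1.80 in the wild-type libraries.

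Genes of the same pathway were examined in 7 lists, beside background shares over all tested genes. By edgeR 2.10% were called lower and 3.71% higher, at an unadjusted p under 0.05 these were 13.8% and 15.9%, and 50.4% were below 0. DESeq2 called 5.81% lower and 6.40% higher of all genes it tested. Among the 4328 genes of at least 50 CPM, 24.3% were lower at an unadjusted p under 0.05 and 67.6% were below 0. Of these 4328 genes DESeq2 called 568 lower and 150 higher. J-domain proteins, the co-chaperones that start the HSP70 cycle, had a median of -0.57 in log2 fold change, and all 11 tested of 12 listed were below 0. edgeR called 0 of them, 6 were lower and 0 higher at an unadjusted p under 0.05, and DESeq2 called 5 lower and 0 higher. DNAJB6, which suppresses aggregation, was measured at 101 and 100 CPM in the mutant libraries, against 152 and 213 CPM in the wild-type libraries. Its groups did not overlap, and its log2 fold change was -0.86 with an edgeR adjusted p of 0.0571.

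Exchange factors and other partners had a median of -0.42, with 11 of 11 below 0. edgeR called 0, 5 were lower and 0 higher at an unadjusted p under 0.05, and DESeq2 called 2 lower and 0 higher. BAG2, an exchange factor that also inhibits the ubiquitin ligase STUB1, was measured at 24.3 and 21.7 CPM in the mutant libraries, against 37.3 and 63.7 CPM in the wild-type libraries. It was lower in both mutant libraries, with a log2 fold change of -1.13 and an edgeR adjusted p of 0.0663. ST13, which holds HSP70 in its ADP state, had a log2 fold change of -0.39 and STUB1 of -0.42.

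Other HSF1 targets had a median of -0.58, with 12 of 12 below 0, and edgeR called 2 lower and 0 higher. At an unadjusted p under 0.05, 8 were lower and 0 higher, and DESeq2 called 5 lower and 0 higher. The 2 genes called by edgeR were HSPD1 and HSPE1, the mitochondrial chaperonin and its co-chaperonin. HSPD1 fell to 563 and 475 CPM in the mutant libraries, against 1032 and 1489 CPM in the wild-type libraries, with a log2 fold change of -1.28 and an edgeR adjusted p of 0.0373. HSPE1 fell to 50.1 and 42.5 CPM in the mutant libraries, against 104 and 175 CPM in the wild-type libraries, with a log2 fold change of -1.59 and an edgeR adjusted p of 0.0394. HSPE1 overlaps the read-through gene HSPE1-MOB4 on the same strand and HSPD1 on the other, and how shared reads were divided was not examined. The constitutive cytosolic HSP90, HSP90AB1, was measured at 779 and 676 CPM in the mutant and 925 and 1381 CPM in the wild-type libraries, and its log2 fold change of -0.67 was not called. Heat shock factors had a median of -0.44, with 4 of 4 below 0 and 0 called by edgeR, 2 lower and 0 higher at an unadjusted p under 0.05, and 1 lower and 0 higher by DESeq2. HSF1 itself was measured at 37.6 and 35.6 CPM in the mutant libraries, against 48.5 and 58.9 CPM in the wild-type libraries, with an edgeR adjusted p of 0.075. Its mutant libraries lay below both wild-type libraries. With wild-type replicate 2 left out, the medians were -0.32 for J-domain proteins, -0.18 for exchange factors and -0.24 for other HSF1 targets, and with wild-type replicate 1 left out they were -0.69, -0.66 and -0.79 in the same order.

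Unfolded protein response targets, the genes induced with HSPA5, had a median of -0.19, with 11 of 18 below 0. Leaving out wild-type replicate 1 gave -0.38, and leaving out wild-type replicate 2 gave -0.12. edgeR called 0 of them, 4 were lower and 3 higher at an unadjusted p under 0.05, and DESeq2 called 1 lower and 2 higher. PDIA4, a disulfide isomerase, had a log2 fold change of -0.47, and SEL1L, an adaptor of protein disposal from the endoplasmic reticulum, had one of 0.51, neither of them called. Partners of mitochondrial HSP70 had a median of -0.18 over 11 tested genes, which was -0.33 without wild-type replicate 1 and -0.03 without wild-type replicate 2, with 0 called lower and 1 called higher by edgeR. At an unadjusted p under 0.05, 2 were lower and 1 higher, and DESeq2 called 1 in each direction. The gene that edgeR called was DNAJC19, a J-domain protein of the inner mitochondrial membrane, which rose to 67.0 and 63.6 CPM in the mutant libraries, against 37.9 and 41.4 CPM in the wild-type libraries, with an edgeR adjusted p of 0.037. GRPEL1, the exchange factor of HSPA9, was not called at a log2 fold change of -0.87.

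Other HSP70 superfamily genes had a median of -0.10 over 5 tested of 7 listed, which was -0.01 without wild-type replicate 1 and turned to 0.13 without wild-type replicate 2. edgeR called 0, 1 was lower and 0 higher at an unadjusted p under 0.05, and DESeq2 called 0 in either direction. HSPA1L, the testis-enriched neighbour of HSPA1A and HSPA1B, was measured at 1.98 and 1.73 CPM in the mutant libraries, against 2.79 and 4.45 CPM in the wild-type libraries. The strictly heat-inducible HSPA6, named after its values were seen, did not pass the filter, with 0.130 and 0.203 CPM in the mutant and 0.161 and 0.502 CPM in the wild-type libraries. HSPA13, a microsomal HSP70 relative, was higher in both mutant libraries, 168 and 167 CPM, against 146 and 116 CPM in the wild-type libraries, and was not called, with an edgeR adjusted p of 0.178.

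**Figure D5:**
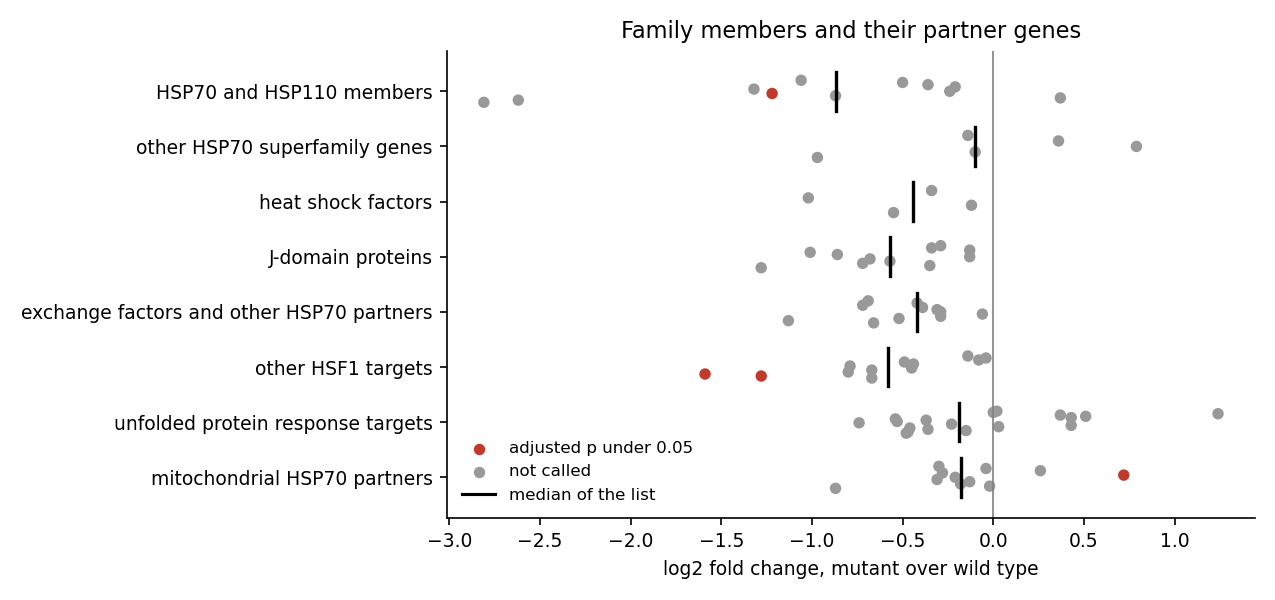
Log2 fold change, mutant over wild type, of each tested gene in the family and in the 7 lists of related genes, with called genes in red and the median of each list as a black line. The family's median is -0.87, the medians of the J-domain, exchange factor and HSF1 target lists lie between -0.58 and -0.42, and those of the unfolded protein response and mitochondrial lists are -0.19 and -0.18.

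The genes whose pattern over the 4 libraries was most like that of the HSPA1A and HSPA1B sum were found by Euclidean distance in centred log2 CPM among 4319 protein-coding genes. The nearest were ATAD3B at a distance of 1.14, HSPE1 at 1.17, GLA at 1.27, WDR77 at 1.29 and SRRT at 1.35. WDR77 came closest in the split between the wild-type libraries, with 64.0 and 61.9 CPM in the mutant libraries, against 88.7 and 232 CPM in the wild-type libraries. GLA had no such split, with 98.2 and 90.5 CPM in the mutant libraries, against 452 and 465 CPM in the wild-type libraries.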

How the data were processed

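Ribosomal RNA was removed with Ribo-Zero Gold and strand-specific libraries were made with the NEBNext Ultra Directional kit, per the labels' protocols. The submitters' processing notes name STAR 2.7.3a, RSEM 1.3.1 and hg38. An annotation release and a strand setting were not given in the sources used here. Per the file headers, the authors deposited expected counts, TPM and effective lengths for 58174 genes in each of 4 libraries. TPM are the authors' values, scaled by effective length, and were used to compare levels between genes.

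Rounded expected counts were tested in edgeR 4.0.16 under R 4.3.3 (filterByExpr by group, TMM, robust quasi-likelihood test, group as the only term), with Benjamini-Hochberg adjustment over 18984 genes. Fold changes are log2 of mutant over wild type, and a standard error (SE) is the fold change divided by the square root of F. Gene identifiers were matched without version to GENCODE 29. Transcript windows of 66 bases reflect a deposited length exceeding the effective length by 65 bases. Alternatives were other scalings and filters, DESeq2 1.42.0, limma 3.58.1 (voom, and trend on log2(TPM + 1)), a replicate block, offsets for effective length or for the neighbourhood median, a fit without mitochondrial and small RNA genes, leaving out each library, and other definitions of the classes. Summing the HSPA14 identifiers was added after seeing the data.

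The members and lists were chosen with earlier results of these data known. Named genes are all members, NIPBL, up to 3 tested genes with the smallest p per list and the 5 genes nearest in pattern, of which some are not reported; the markers named, DNAJC2 and HSPA6 fall outside this rule and were chosen after their values were seen. Protein sequences were not used here, and a further marker list is not reported here.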

Additional observations from a re-analysis of the deposited data

How the results depend on the processing

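The count of members called lower, 1 with all 4 libraries, was 4 with DESeq2 (HSPA1A, HSPA1B, HSPA4 and HSPA4L) and 3 with effective length offsets (HSPA1A, HSPA1B and HSPA4L), and it ranged from 1 to 10 when each library was left out, where the count called higher ranged from 0 to 1. The labels do not say whether replicate numbers pair the libraries. Same-numbered libraries deviated from their group means with a correlation of -0.093. With 2 libraries per group the deviations mirror each other, so both pairs give 1 and the same value. That value shows no positive shared deviation between same-numbered libraries, but 1 such value cannot settle pairing. With a replicate block 3 members were called lower (HSPA8, HSPA4 and HSPA4L), against 4.26% of all tested genes. In that fit the HSPA1A and HSPA1B sum had a log2 fold change of -2.44 with an edgeR adjusted p of 0.234. That sum passed the threshold at -2.73 with DESeq2 and -2.72 with effective length offsets. It was not called under the other alternatives that used 4 libraries, among them the fit without a filter, at an edgeR adjusted p of 0.103. The sum kept its sign between -2.84 and -2.25 over all alternatives that used 4 libraries, and ranged from -3.36 to -1.53 when each library was left out. HSPA9 turned to 0.07 in limma-trend on log2(TPM + 1), and ranged from -0.51 to 0.14 when each library was left out. HSPA4L was called under every alternative run, between -1.24 and -0.95 with 4 libraries. The inducible minus other difference stayed between -1.86 and -0.70 under all its alternatives. For the other scalings and fits with 4 libraries it was taken from fitted log2 fold changes. The main value of -1.16 was taken from log2 CPM within libraries, so these are not the same statistic. Scaling by total count moved the median of all tested genes by 0.17 and brought HSPA5 to -0.06 and HSPA9 to -0.03, with 1 member called lower under each scaling. Why these settings differ was not tested. A fit without a wild-type library takes its spread from the mutant pair alone, and a fit without a mutant library from the wild-type pair alone, so a lone library is assumed to vary like the other group. With 2 libraries per genotype, their number limited the precision. HSPA2 was the member at the lowest level, and whether that level limited its precision was not tested.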
